A study of Homo sapiens with 40 samples.

Results

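The 7 mRNAs described here are HMGA1, HMGA2, LIN28B, IGF2BP1, IGF2BP2, IGF2BP3 and ARID3B, a set of mRNAs known from other work as let-7 targets or as genes of the IGF2BP family. They were taken by symbol from 40 gene-level read count tables of human HEK293 cells, in which they make up 7 of 55765 symbols. All 7 passed the filter on low counts in every comparison, with between 371 counts (the lowest value of ARID3B) and 19567 counts (the highest value of IGF2BP1) in a library. Library depth ran from 15353317 to 46018900 counts. Levels are given as CPM, a gene's counts relative to the total of its library after TMM scaling within each experiment. Changes are log2 fold changes from edgeR's quasi-likelihood test. Their standard error (SE) was derived as the absolute log2 fold change divided by the square root of the F value of that test. A change was called when its Benjamini-Hochberg adjusted p over all genes tested was under 0.05.

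HEK293 is a line derived from human embryonic kidney cells, and all samples were of this line. In the first experiment, cells without siRNA treatment were lysed and endogenous eIF4A1, eIF4A2 or DDX6 was immunoprecipitated with the RNA bound to it, giving 3 libraries each of eIF4A1 IP, eIF4A2 IP and DDX6 IP beside 3 of total RNA. In the second, cells were transfected with control siRNA or with siRNA to CNOT1, on which the Ccr4-Not deadenylase complex is built, and their lysates were run on sucrose gradients, giving 4 libraries each of input RNA, subpolysomal RNA (fractions 1 to 5) and polysomal RNA (fractions 6 to 11) per siRNA. In the third, 2 libraries of total RNA from cells given control siRNA were set beside 2 from cells in which TNRC6A and TNRC6B were depleted together. The labels do not say whether replicates came from separate cultures, so the tests measure the spread between these libraries, which may be technical. No immunoprecipitate with a control antibody was analysed here, so a level in an IP is read against total RNA or against another IP. Levels are shares of a library and do not give the amount of an mRNA that was recovered in an IP. Whether the libraries of compared groups overlap is a description. The share of all genes without overlap was counted only for input RNA after CNOT1 siRNA and for TNRC6A/B siRNA.

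let-7 is a microRNA family that pairs through its seed with sites in the 3′UTR of an mRNA. Argonaute and its TNRC6 (GW182) partner then recruit Ccr4-Not, which shortens the poly(A) tail and is linked to repression of translation, with DDX6 and eIF4A2 both placed at this complex by other work. let-7 is low in embryonic cells and rises as cells differentiate, and LIN28B, an RNA-binding protein of early development, blocks its maturation. HMGA1 and HMGA2 are chromatin proteins of the high mobility group A family, IGF2BP1, IGF2BP2 and IGF2BP3 are mRNA-binding proteins best known from fetal tissues and tumours, and ARID3B is a DNA-binding protein of the ARID family. let-7 itself was not measured, as the libraries hold mRNA.

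The mature let-7 sequences are shown first because they define what a site in the 7 mRNAs is. In RefSeq (GRCh38.p14), 9 human family members share the seed GAGGUAG, bases 2 to 8 from the 5′ end, and 4 of them are printed with the seed in capitals.
hsa-let-7a-5p: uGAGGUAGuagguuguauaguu
hsa-let-7d-5p: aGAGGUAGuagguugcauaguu
hsa-let-7e-5p: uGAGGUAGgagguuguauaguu
hsa-miR-98-5p: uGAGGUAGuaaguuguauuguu

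A match to this seed in an mRNA reads CTACCTC in DNA letters, called a 7mer here, and CTACCTCA is called an 8mer. Every 8mer is also a 7mer, and only the strand of the mRNA was searched. A single site of each mRNA is printed from the 3′UTR of its reference transcript, with build GRCh37 coordinates (GENCODE 44 models on that build), the match in capitals and the strand of the gene.
HMGA1, chr6:34213607-34213631, plus strand: cctctgttcacaaaCTACCTCtgga
HMGA2, chr12:66357079-66357103, plus strand: ccaacgttcgatttCTACCTCAgca
LIN28B, chr6:105526688-105526712, plus strand: cccggttgcaaagtCTACCTCAtgc
IGF2BP1, chr17:47128424-47128448, plus strand: gtgtgcgaagtaaaCTACCTCAagg
IGF2BP2, chr3:185362005-185362029, minus strand: acacacagaagaagCTACCTCAggt
IGF2BP3, chr7:23351411-23351435, minus strand: gcatttttactcaaCTACCTCAggt
ARID3B, chr15:74890443-74890467, plus strand: atttcaataaacctCTACCTCttca

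All 7 of the 3′UTRs held at least 1 match, whereas 9.68% of 19263 human 3′UTRs did. HMGA2, LIN28B and IGF2BP1 each held 4, which 0.0623% of all 3′UTRs reached or passed, and HMGA1, IGF2BP2, IGF2BP3 and ARID3B held 1. Because the members were chosen as known let-7 targets, these counts describe the set and test nothing. An 8mer was present in 3.72% of all 3′UTRs. HMGA2 held 1, LIN28B 2, IGF2BP1 3, and IGF2BP2 and IGF2BP3 1 each, while the single matches in HMGA1 and ARID3B were 7mers. The 3′UTRs differed in length, from 1347 nt in HMGA1 to 6701 nt in IGF2BP1, and a longer one holds more matches. Among 3′UTRs within 10% of their own length, themselves included, as many matches were present in 0.0913% for HMGA2, 0.271% for LIN28B and 0.294% for IGF2BP1. At least 1 match was present in 7.82% for HMGA1 and in 13.3% for both IGF2BP3 and ARID3B. The printed HMGA2 and LIN28B sites began 21 and 44 nt after the stop codon, and that of ARID3B at position 2342 of a 3′UTR of 2357 nt, just after an aataaa hexamer that is visible in the printed sequence. A match is a stretch of letters and does not show that let-7 bound there.

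**Figure D1:**
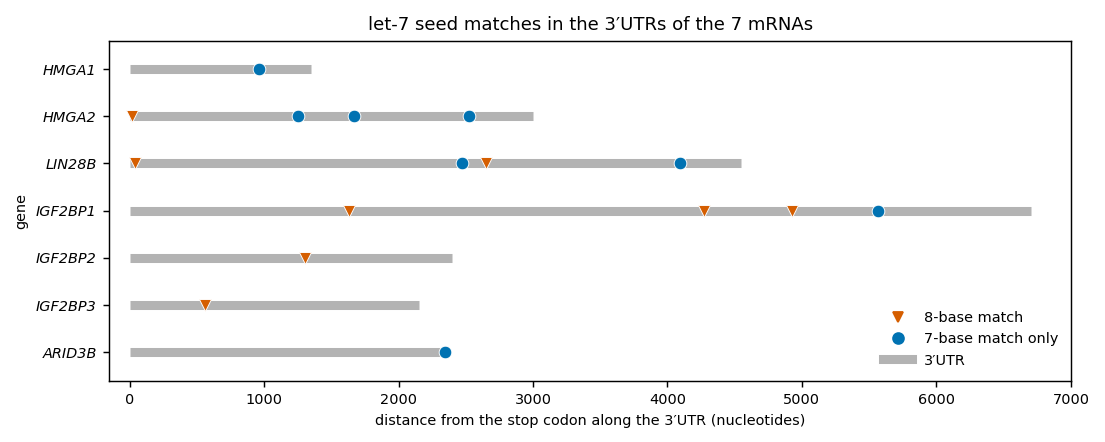
Matches to the let-7 seed along the 3′UTRs of the 7 mRNAs. The horizontal axis is the distance from the stop codon in nucleotides, each bar is the 3′UTR of the reference transcript, and marks give 7mer and 8mer matches, of which HMGA2, LIN28B and IGF2BP1 carry 4 each and the other mRNAs 1 each.

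The targeted genes were read first. CNOT1 mRNA was 672 ± 35.7 CPM (SD, n = 4) in control input RNA and 39.6 ± 1.99 CPM (n = 4) after CNOT1 siRNA. In subpolysomal RNA it was 280 ± 40.3 and 80.8 ± 6.98 CPM (n = 4 each). In polysomal RNA, the library labelled control siRNA 3 held 28.3 CPM of CNOT1 and the library labelled CNOT1 siRNA 3 held 631 CPM, against 470 to 501 CPM in the other control libraries and at most 31.6 CPM in the other CNOT1 siRNA libraries. These libraries thus go against their labels. The labels were kept, nothing was exchanged, and polysomal results are given with and without both. TNRC6A was 178 and 189 CPM in the control libraries and 40.5 and 64.7 CPM after TNRC6A/B siRNA, and TNRC6B was 67.6 and 73.1 CPM against 17.7 and 26.3 CPM. EIF4A2 mRNA was higher in the eIF4A2 IP than in total RNA (945 against 391 CPM, log2 fold change 1.27) and DDX6 mRNA in the DDX6 IP (514 against 172 CPM, 1.58). EIF4A1 mRNA was lower in the eIF4A1 IP (1.79 against 8.60 CPM, −2.26), at only 34 to 479 counts a library. EIF4A2 and DDX6 mRNA were also above total RNA in every library of the other IPs, and EIF4A1 mRNA was below it in every DDX6 IP library. These mRNA levels therefore do not check which protein was recovered.

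All 7 marker genes fixed for HEK293 cells reached 1 CPM in some library, and of 5 measured markers of other cell types only COL1A1 did. The lists did not separate cleanly. PAX2 ran from 0.0984 to 1.57 CPM, while COL1A1 reached 18.1 CPM, above the highest values of LHX1 (14.4 CPM) and KRT8 (11.7 CPM). Counts for LIN28A, the paralogue of LIN28B, were 0 to 2 a library, for IGF2 2 to 54, and for the imprinted oncofetal RNA H19 0 to 68. Some genes share bases with others on the opposite strand, namely IGF2BP3 with MALSU1 over 1521 exon bases, HMGA2 with HMGA2-AS1 over 384 and LIN28B with LIN28B-AS1 over 181. The strand setting of the counting is not given in the sources used here, so reads of these pairs may not be told apart. HMGA1 has near-identical pseudogenes, whose rows held at most 46 counts in a library, and its counts are uncertain to the extent that reads were split between them.

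Levels can be compared between the 7 genes only per length. In control input RNA, per kilobase of annotated exon, HMGA1 was highest at 74.6 ± 6.54 CPM per kb (SD, n = 4 in each case), followed by IGF2BP1 at 45.2 ± 3.19, LIN28B at 40.5 ± 0.934, IGF2BP2 at 24.4 ± 1.42, IGF2BP3 at 12.7 ± 0.520, HMGA2 at 6.54 ± 0.318 and ARID3B at 5.24 ± 0.408. The ranges of IGF2BP1 and LIN28B overlapped over the 4 libraries, so these cannot be ordered, and no other neighbours in this order overlapped. The HMGA2 value depends most on the length used, since its exons together span 15070 nt against 4117 nt in the reference transcript. Per kilobase of that transcript HMGA2 was 23.9 CPM per kb and overlapped IGF2BP3 at 25.3.

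The immunoprecipitations ask how high the level of each mRNA was with eIF4A1, eIF4A2 or DDX6 relative to total RNA. All members but ARID3B had negative log2 fold changes with eIF4A1 and eIF4A2. ARID3B was called higher with eIF4A1 and DDX6. Of the 7 members, 5 were called lower and 1 higher in the eIF4A1 IP, and in the eIF4A2 IP 6 lower and none higher, and in the DDX6 IP 1 lower and 1 higher. Among all 17474 genes tested, 52.6%, 50.3% and 46.0% were called in these comparisons, so a call on its own was common. All 3 comparisons use the same total RNA libraries. For how many of all genes the libraries did not overlap was not counted in them. In a bulk lysate, fewer cells with an mRNA and less of it per cell cannot be told apart.

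HMGA1, which helps to shape chromatin at promoters and enhancers, had the largest negative changes. It was 316, 421 and 257 CPM in total RNA, 106, 217 and 148 CPM in the eIF4A1 IP, 102, 135 and 62.4 CPM in the eIF4A2 IP, and 213, 281 and 182 CPM in the DDX6 IP. Every eIF4A1 and eIF4A2 library lay below every total RNA library, whereas the DDX6 IP overlapped total RNA. The log2 fold change was −1.08 (SE 0.306, adjusted p = 0.00945) in the eIF4A1 IP, −1.73 (SE 0.311, adjusted p = 0.000466) in the eIF4A2 IP, and −0.56 (SE 0.303, adjusted p = 0.149) in the DDX6 IP. With the replicate number as a block, the DDX6 value was −0.55 (SE 0.167, adjusted p = 0.0121), which passed the test.

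HMGA2, the relative of HMGA1 whose 3′UTR is the textbook case of let-7 regulation, was 110, 130 and 133 CPM in total RNA. It was 80.4, 111 and 122 CPM in the eIF4A1 IP, 80.7, 103 and 69.2 CPM in the eIF4A2 IP, and 130, 137 and 148 CPM in the DDX6 IP. Only the eIF4A2 IP lay wholly below total RNA. Its log2 fold change was −0.56 (SE 0.178, adjusted p = 0.0177), against −0.25 (SE 0.178, adjusted p = 0.255) in the eIF4A1 IP and 0.15 (SE 0.178, adjusted p = 0.502) in the DDX6 IP. The eIF4A2 call was lost, at adjusted p up to 0.0730, in each of the fits without total RNA 2, total RNA 3, eIF4A2 IP 1 or eIF4A2 IP 3.

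LIN28B was 208, 236 and 239 CPM in total RNA, and it was lower in every IP library. It was 127, 145 and 179 CPM in the eIF4A1 IP (log2 fold change −0.60, SE 0.145, adjusted p = 0.00351) and 126, 140 and 132 CPM in the eIF4A2 IP (−0.78, SE 0.145, adjusted p = 0.000600). In the DDX6 IP it was 179, 177 and 207 CPM, with a log2 fold change of −0.28 (SE 0.144, adjusted p = 0.126). That value passed with the replicate number as a block, at −0.28 (SE 0.107, adjusted p = 0.0373).

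The IGF2BP mRNAs encode proteins that bind target mRNAs in the cytoplasm and protect many of them from decay. IGF2BP1 was 395, 455 and 415 CPM in total RNA and lay between 254 and 378 CPM in all 9 IP libraries. IGF2BP2 was 140, 158 and 146 CPM against 55.4 to 124 CPM, and IGF2BP3 was 108, 115 and 119 CPM against 65.3 to 86.2 CPM. No IP library of any of the 3 mRNAs reached the range of total RNA.

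IGF2BP3 was called lower in all IPs, at −0.63 (SE 0.130, adjusted p = 0.00128) with eIF4A1, −0.52 (SE 0.130, adjusted p = 0.00439) with eIF4A2 and −0.53 (SE 0.130, adjusted p = 0.00470) with DDX6. IGF2BP2 was −0.57 (SE 0.212, adjusted p = 0.0375), −0.72 (SE 0.213, adjusted p = 0.0119) and −0.41 (SE 0.212, adjusted p = 0.129) in the same order. IGF2BP1 was −0.43 (SE 0.173, adjusted p = 0.0496), −0.44 (SE 0.173, adjusted p = 0.0473) and −0.37 (SE 0.173, adjusted p = 0.0944), the last of which passed with the replicate block at −0.39 (SE 0.129, adjusted p = 0.0189). The IGF2BP1 calls were close to the threshold. Of 6 fits that each left out 1 library, only the one without eIF4A1 IP 3 and the one without eIF4A2 IP 3 kept them, and adjusted p reached 0.165 and 0.164. They were also lost with no filter on low counts and with only the compared libraries in the fit. The eIF4A1 call of IGF2BP2 likewise held only without eIF4A1 IP 3, with adjusted p up to 0.131.

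ARID3B was the 1 member with a higher level in every IP than in total RNA. It was 47.7, 56.4 and 44.3 CPM in total RNA, 68.7, 75.5 and 73.3 CPM in the eIF4A1 IP, 55.5, 64.3 and 58.1 CPM in the eIF4A2 IP and 68.7, 74.1 and 73.2 CPM in the DDX6 IP. The eIF4A1 and DDX6 IPs lay wholly above total RNA, while the eIF4A2 IP overlapped it. The log2 fold changes were 0.55 (SE 0.126, adjusted p = 0.00251) with eIF4A1, 0.54 (SE 0.126, adjusted p = 0.00353) with DDX6 and 0.26 (SE 0.126, adjusted p = 0.0995) with eIF4A2. The eIF4A2 value passed with the replicate block, at 0.26 (SE 0.0936, adjusted p = 0.0258), and without total RNA 2, at 0.37 (adjusted p = 0.0471). With the block, 64.5%, 62.4% and 60.0% of all genes were called in the eIF4A1, eIF4A2 and DDX6 IPs.

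The summed level of the 7 HEK293 marker genes also moved with the IPs, from 4698 to 6686 CPM in total RNA to 861 to 1508 CPM in the eIF4A1 IP, 381 to 1639 CPM in the eIF4A2 IP and 885 to 2318 CPM in the DDX6 IP. The sum is weighted to NEFM and NEFL, which reached 6045 and 1386 CPM in a library, against 1.57, 14.4 and 11.7 CPM for PAX2, LHX1 and KRT8. In each IP 5 of these 7 genes were called lower, where 52.6%, 50.3% and 46.0% of all genes were called with eIF4A1, eIF4A2 and DDX6. The part of these genes in the values above was not tested.

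**Figure D2:**
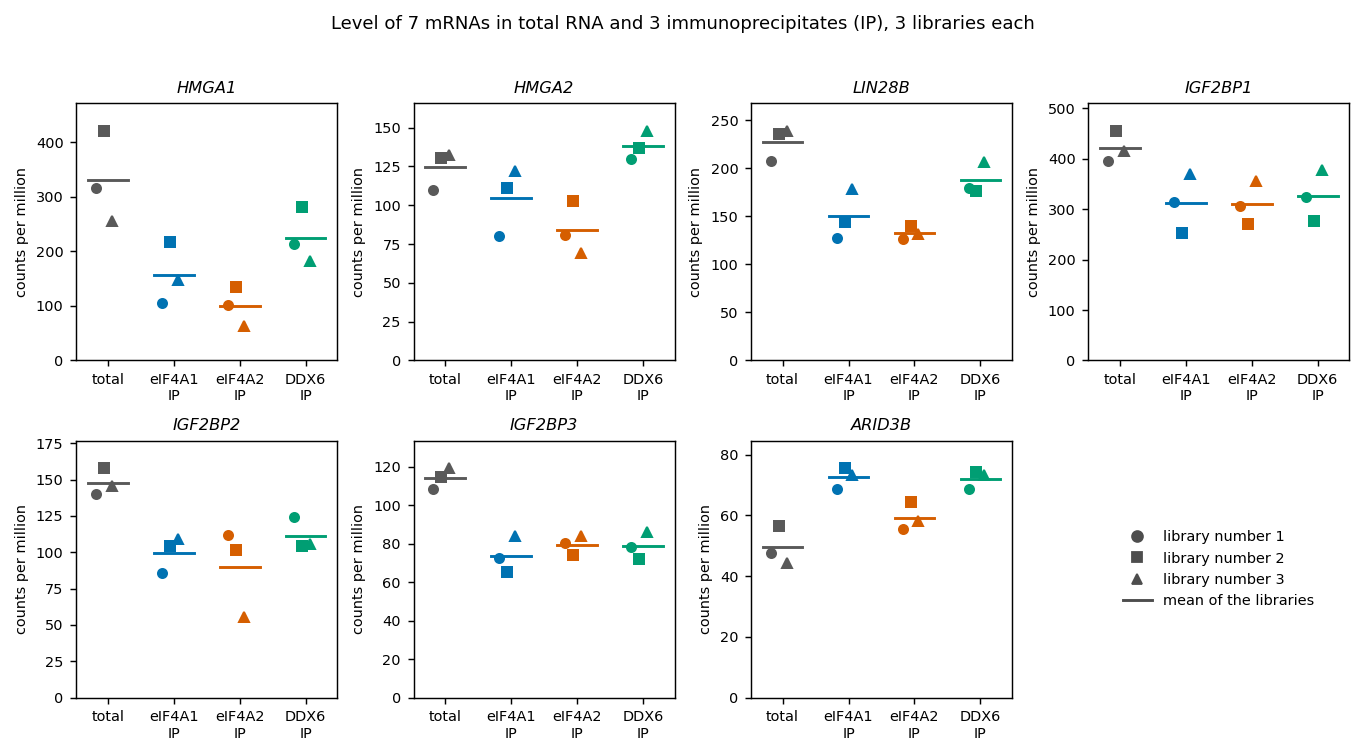
Levels of the 7 mRNAs in the immunoprecipitation experiment. The vertical axes are CPM from 0, each point is 1 library (3 per group) and the bars are group means. HMGA1 has its lowest libraries in the eIF4A2 IP, at 62.4 to 135 CPM, and ARID3B lies above total RNA in all libraries of the eIF4A1 and DDX6 IPs.

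Set directly against each other, the IPs differed in 3 of the 7 mRNAs. In each case the mRNA was a smaller share of the eIF4A2 IP libraries than of the DDX6 IP libraries. HMGA1 was lower in the eIF4A2 IP than in the DDX6 IP by a log2 fold change of −1.17 (SE 0.307, adjusted p = 0.0184), HMGA2 by −0.72 (SE 0.179, adjusted p = 0.0150) and LIN28B by −0.50 (SE 0.144, adjusted p = 0.0282). The 2 sets of libraries did not overlap for any of these mRNAs, but the share of all genes without overlap was not counted here. In this comparison 21.1% of all genes were called. ARID3B was lower in every eIF4A2 library too, at −0.28 (SE 0.126, adjusted p = 0.128), and passed only with the replicate block at −0.28 (SE 0.0931, adjusted p = 0.0280), where 40.5% of all genes were called. The calls had small margins. HMGA1 lost its call without eIF4A2 IP 1, eIF4A2 IP 3 or DDX6 IP 2 (adjusted p up to 0.0776), HMGA2 without eIF4A2 IP 1 or 3 (up to 0.0588), and LIN28B in every fit that left out a library except that without eIF4A2 IP 2 (up to 0.0986).

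Between the eIF4A2 and eIF4A1 IPs, no member was called and 1.06% of all genes were. ARID3B was lower in every eIF4A2 library (−0.29, SE 0.126, adjusted p = 0.251) and was the 1 member with an unadjusted p under 0.05. HMGA1 was −0.65 (SE 0.304, adjusted p = 0.283) and HMGA2 −0.31 (SE 0.178, adjusted p = 0.372). DESeq2 called none either. With the replicate block, where 15.8% of all genes were called, HMGA1 passed at −0.67 (SE 0.169, adjusted p = 0.0199) and ARID3B at −0.29 (SE 0.0931, adjusted p = 0.0492).

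Between the DDX6 and eIF4A1 IPs, no member was called by edgeR, against 0.0916% of all genes, and 2 members had an unadjusted p under 0.05. These were HMGA2, which was higher in every DDX6 library (0.40, SE 0.178, adjusted p = 0.338), and LIN28B (0.32, SE 0.144, adjusted p = 0.342). HMGA1 was 0.52 (SE 0.303, adjusted p = 0.461). The replicate block called no member here either, with 1730 of 17474 genes called.

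TNRC6A and TNRC6B are the scaffolds that link Argonaute to the deadenylases, and depleting them asks which mRNAs rise or fall when that link is weakened. Without a replicate block, none of the 7 mRNAs was called by edgeR and none had an unadjusted p under 0.05. Of 14064 genes 0.0% were called, with 289 genes at an unadjusted p under 0.05. With 2 libraries a group, the control libraries themselves lay far apart for several members. The summed level of the HEK293 markers was 4900 to 5612 CPM in the control libraries and 6336 to 7021 CPM after TNRC6A/B siRNA, none of them was called, and their part in the values below was not tested.

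LIN28B was 173 and 228 CPM in the control libraries and 257 and 267 CPM after TNRC6A/B siRNA. It was the 1 member whose groups did not overlap, which 24.6% of all genes shared, and its log2 fold change was 0.38 (SE 0.215, adjusted p = 0.9999). Between libraries of the same number it was 0.57 and 0.22. IGF2BP1 was 522 and 357 CPM against 663 and 503 CPM, a log2 fold change of 0.41 (SE 0.273) with 0.34 and 0.50 between libraries of the same number. IGF2BP3 was 87.3 and 109 CPM against 109 and 121 CPM (0.23, SE 0.219). With the replicate number as a block, LIN28B was 0.40 (SE 0.155, adjusted p = 0.123) and IGF2BP1 0.42 (SE 0.153, adjusted p = 0.0870). Neither passed, but in that edgeR fit their unadjusted p was 0.0107 and 0.00616, and no other member was under 0.05.

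HMGA2 was 83.1 and 105 CPM against 77.6 and 92.1 CPM (log2 fold change −0.15, SE 0.233), lower between both pairs of the same number at −0.10 and −0.19. IGF2BP2 was 156 and 111 CPM against 148 and 108 CPM (−0.06, SE 0.282). HMGA1 was 347 and 90.0 CPM against 259 and 101 CPM (−0.28, SE 0.759), and ARID3B was 52.7 and 23.2 CPM against 46.3 and 29.7 CPM. For HMGA1 and ARID3B the distance between libraries 1 and 2 of one group exceeded any difference between groups. Values between libraries of the same number, or with the block, are a description, since 2 numbers cannot show whether they pair the libraries.

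**Figure D3:**
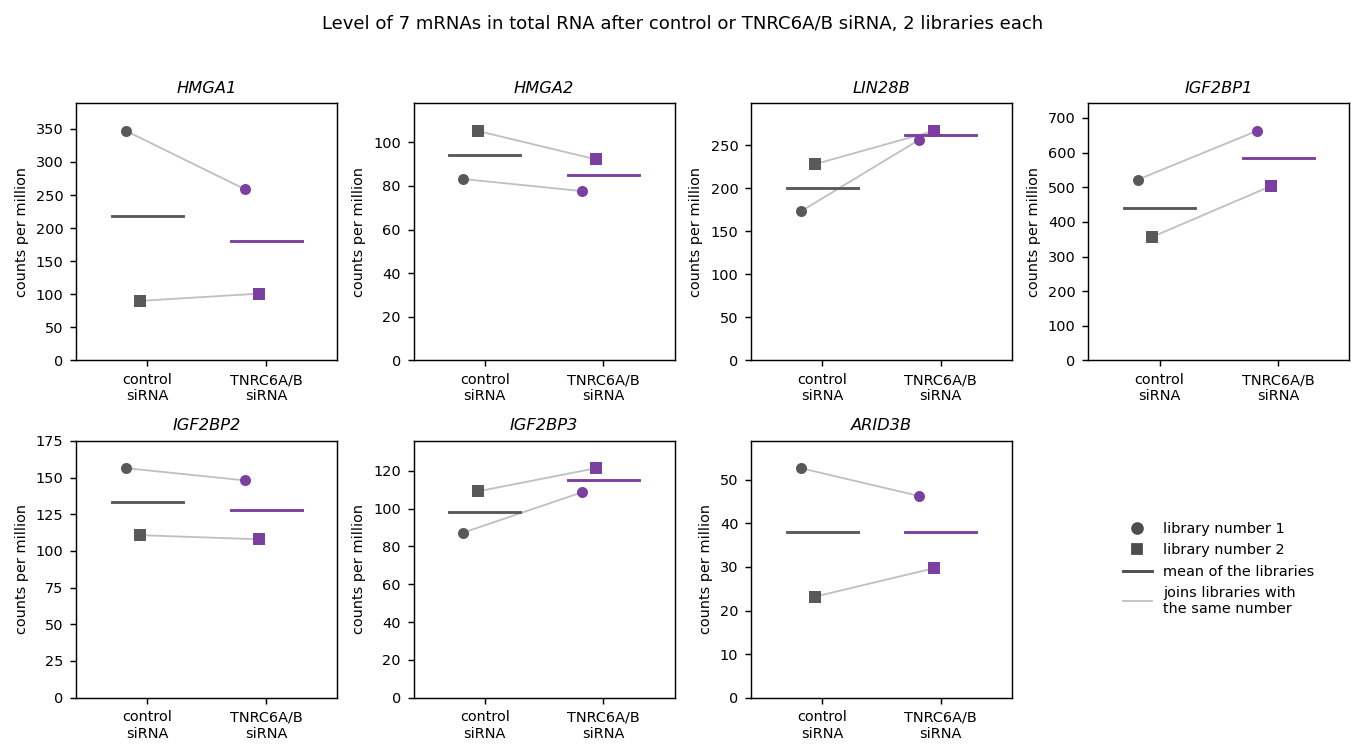
Levels of the 7 mRNAs after TNRC6A/B siRNA. The vertical axes are CPM from 0, each point is 1 library (2 per group), bars are group means and lines join libraries of the same number. LIN28B, at 257 and 267 CPM after TNRC6A/B siRNA, is the only one with both libraries above both controls.

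CNOT1 depletion removes the scaffold on which the deadenylases and DDX6 assemble, and the input RNA asks how total levels respond. HMGA2 and LIN28B fell, ARID3B rose, HMGA1 fell and IGF2BP1 rose by small amounts, and IGF2BP2 and IGF2BP3 did not pass the test. Among 15686 genes 61.0% were called, and for 53.1% the groups did not overlap. The summed level of the HEK293 markers moved with CNOT1 siRNA as well, from 5703 to 6144 CPM in control input RNA to 3729 to 4262 CPM, with 1 of 6 tested called higher and 5 lower, and its part in the values below was not tested.

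HMGA2 was 95.7, 103, 93.2 and 102 CPM in the control libraries and 71.1, 75.9, 64.9 and 74.2 CPM after CNOT1 siRNA, a log2 fold change of −0.45 (SE 0.0593, adjusted p = 1.03e-05). LIN28B was 240, 241, 235 and 248 CPM against 172, 175, 179 and 164 CPM, a log2 fold change of −0.47 (SE 0.050, adjusted p = 1.19e-06). The groups did not overlap for either mRNA. ARID3B was 34.5, 34.1, 32.1 and 29.0 CPM against 45.6, 49.5, 48.8 and 43.0 CPM, again without overlap, at 0.54 (SE 0.0676, adjusted p = 5.12e-06). The direction of these 3 changes was the same in 4 of 4 pairs of libraries with the same number.

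HMGA1 was 177, 190, 174 and 153 CPM against 136, 174, 127 and 146 CPM. Its log2 fold change was −0.24 (SE 0.0830, adjusted p = 0.0209), with overlapping groups, and the call was lost without control 2, CNOT1 siRNA 1 or CNOT1 siRNA 3 (adjusted p up to 0.0717). IGF2BP1 was 465, 458, 421 and 400 CPM against 503, 503, 452 and 453 CPM, also with overlap, at 0.15 (SE 0.0578, adjusted p = 0.0358), and its call was lost without control 3, control 4, CNOT1 siRNA 1 or CNOT1 siRNA 2 (up to 0.135). Both calls were lost in a fit of all 24 gradient libraries, at adjusted p = 0.287 and 0.296. IGF2BP2 was 130 ± 7.58 against 133 ± 5.75 CPM (SD, n = 4 each), at 0.05 (SE 0.0539, adjusted p = 0.445). IGF2BP3 was 108 ± 4.44 against 105.5 ± 6.55 CPM, at −0.02 (SE 0.0568, adjusted p = 0.771).

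Subpolysomal RNA holds free mRNA and mRNA with few ribosomes. Without a replicate block, ARID3B was the 1 member called there after CNOT1 siRNA, where 27.8% of 15823 genes were. It was 35.8, 35.9, 48.2 and 45.5 CPM in the control libraries and 55.9, 53.7, 66.4 and 62.6 CPM after CNOT1 siRNA, without overlap, at 0.56 (SE 0.148, adjusted p = 0.0194). Without CNOT1 siRNA 3 the value was 0.50 (adjusted p = 0.0522).

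HMGA2 was 53.6, 59.8, 39.3 and 41.1 CPM against 54.6, 61.7, 53.6 and 49.0 CPM, at 0.21 (SE 0.135, adjusted p = 0.263). HMGA1 was 155, 200, 255 and 260 CPM against 133, 153, 194 and 195 CPM, at −0.34 (SE 0.198, adjusted p = 0.217). Under either siRNA, libraries 1 and 2 lay above libraries 3 and 4 for HMGA2 and below them for HMGA1. With the replicate number as a block both passed, HMGA1 at −0.33 (SE 0.0691, adjusted p = 0.0006) and HMGA2 at 0.22 (SE 0.0743, adjusted p = 0.0176), and 58.2% of all genes were called.

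LIN28B was 182 ± 40.0 CPM in the control and 189 ± 28.4 CPM after CNOT1 siRNA (0.09, SE 0.152, adjusted p = 0.691). The IGF2BP mRNAs were within 0.15 of 0 on the log2 scale in this fraction. IGF2BP1 was 0.13 (SE 0.107, adjusted p = 0.374), IGF2BP2 0.15 (SE 0.0934, adjusted p = 0.261) and IGF2BP3 0.08 (SE 0.124, adjusted p = 0.671).

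In polysomal RNA, with all libraries as labelled, no member was called by edgeR, none had an unadjusted p under 0.05, and 0.0% of 14474 genes were called (99 genes at an unadjusted p under 0.05, and none by DESeq2). HMGA2 was 114, 135, 75.5 and 119 CPM in the libraries labelled control and 74.4, 86.7, 124 and 92.5 CPM in those labelled CNOT1 siRNA, and LIN28B was 240, 259, 179 and 230 CPM against 173, 169, 264 and 157 CPM. In both mRNAs, library 3 of each group, the pair that goes against its labels in CNOT1, lay nearer to the remaining libraries of the other group than to those of its own. As labelled, HMGA2 was −0.23 (SE 0.204), LIN28B −0.26 (SE 0.185), HMGA1 −0.19 (SE 0.201), IGF2BP1 0.13 (SE 0.119) and ARID3B 0.20 (SE 0.211), all at adjusted p = 0.889. IGF2BP2 was 0.06 (SE 0.117, adjusted p = 0.910) and IGF2BP3 0.0077 (SE 0.140, adjusted p = 0.991).

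With both libraries labelled 3 left out, 3 libraries a group remained and 40.6% of 14514 genes were called. HMGA2 was then −0.54 (SE 0.102, adjusted p = 0.00274) and LIN28B −0.56 (SE 0.0779, adjusted p = 0.000646), both lower after CNOT1 siRNA. IGF2BP1, at 360, 349 and 330 CPM against 416, 437 and 375 CPM, was 0.23 (SE 0.0826, adjusted p = 0.0470), and ARID3B, at 39.8, 38.9 and 29.8 CPM against 51.1, 58.7 and 44.8 CPM, was 0.50 (SE 0.134, adjusted p = 0.0143). The groups did not overlap for any of these 4 mRNAs, but the share of all genes without overlap was not counted here. HMGA1 was −0.29 (SE 0.161, adjusted p = 0.169), and with the replicate block as well it was −0.29 (SE 0.0718, adjusted p = 0.00017), where 58.3% of all genes were called. IGF2BP2, at 0.09 (SE 0.0923, adjusted p = 0.4496), and IGF2BP3, at −0.03 (SE 0.0806, adjusted p = 0.811), did not pass without those libraries either.

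**Figure D4:**
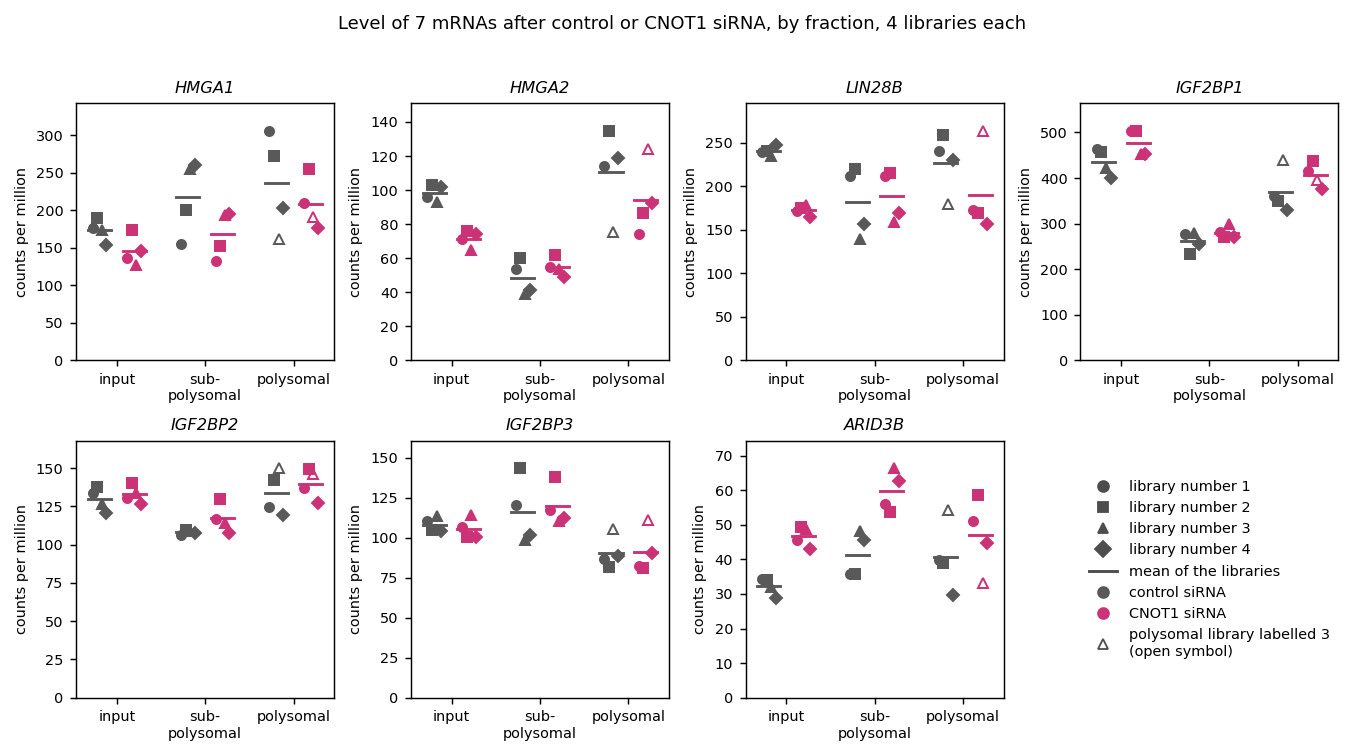
Levels of the 7 mRNAs in input, subpolysomal and polysomal RNA after control or CNOT1 siRNA. The vertical axes are CPM from 0, each point is 1 library (4 per group, the polysomal libraries labelled 3 as open symbols) and the bars are group means. HMGA2 and LIN28B lie lower after CNOT1 siRNA in input RNA, and ARID3B lies higher in input and subpolysomal RNA.

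The gradient libraries also give the level of each mRNA in polysomal against subpolysomal RNA. These levels are relative to the other mRNAs of each library, so they do not give the share of an mRNA in either fraction. Under control siRNA HMGA2 had the largest log2 fold change of the members, at 1.13 (SE 0.203, adjusted p = 0.000470). It was 111 ± 25.1 CPM in polysomal and 48.5 ± 9.91 CPM in subpolysomal RNA (SD, n = 4 each). IGF2BP1 was also higher in polysomal RNA (0.42, SE 0.134, adjusted p = 0.0159), whereas IGF2BP3 was lower (−0.43, SE 0.139, adjusted p = 0.0175), with overlapping groups. LIN28B was 0.26 (SE 0.176, adjusted p = 0.215), and IGF2BP2 was 0.23 (SE 0.118, adjusted p = 0.102) with every polysomal library above every subpolysomal one. Of 15500 genes 65.1% were called. The IGF2BP3 call was lost without subpolysomal 1, 2 or 4 or polysomal 1 or 2 (adjusted p up to 0.208).

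Without the polysomal library labelled control 3, where 67.8% of all genes were called, HMGA2 was 1.31 (SE 0.142, adjusted p = 2.30e-05). IGF2BP1 was 0.38 (SE 0.110, adjusted p = 0.0116), IGF2BP3 −0.46 (SE 0.128, adjusted p = 0.00882), and LIN28B passed at 0.40 (SE 0.145, adjusted p = 0.0322). IGF2BP2 was 0.22 (SE 0.0988, adjusted p = 0.0691).

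Under CNOT1 siRNA HMGA2 was still higher in polysomal RNA, at 94.4 ± 21.2 against 54.7 ± 5.24 CPM (0.72, SE 0.159, adjusted p = 0.00121). IGF2BP1 was 0.47 (SE 0.107, adjusted p = 0.00166) and IGF2BP3 −0.45 (SE 0.137, adjusted p = 0.00970). ARID3B was lower in polysomal RNA at −0.41 (SE 0.160, adjusted p = 0.0362), where 66.4% of all genes were called. Without the library labelled CNOT1 siRNA 3, where 70.7% were called, ARID3B was −0.26 (SE 0.127, adjusted p = 0.0835), HMGA2 0.58 (SE 0.122, adjusted p = 0.000742), IGF2BP1 0.50 (SE 0.109, adjusted p = 0.00100) and IGF2BP3 −0.55 (SE 0.118, adjusted p = 0.000870). The ARID3B call was also lost without subpolysomal 1, 3 or 4 or polysomal 4 (adjusted p up to 0.0849).

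The change of the polysomal to subpolysomal ratio after CNOT1 siRNA was then tested directly. With all libraries as labelled no member passed by edgeR, none had an unadjusted p under 0.05 and DESeq2 called none, while 0.951% of 16506 genes were called. HMGA2 was −0.40 (SE 0.263, adjusted p = 0.487) and LIN28B −0.31 (SE 0.261, adjusted p = 0.607). With both libraries labelled 3 left out, 9.44% of genes were called, HMGA2 passed at −0.71 (SE 0.203, adjusted p = 0.0381) and LIN28B was −0.60 (SE 0.216, adjusted p = 0.0931). The lower polysomal to subpolysomal ratio of HMGA2 after CNOT1 siRNA thus rests on leaving out the pair of libraries that goes against its labels.

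A comparison that needs no polysomal library gives the CNOT1 siRNA effect in subpolysomal RNA minus that in input RNA. It was added after the HMGA2 values had been seen. HMGA2 differed by 0.63 (SE 0.174, adjusted p = 0.0268) on the log2 scale, and 9.66% of all genes were called. Without a replicate block HMGA2 was called lower in input RNA and not called in subpolysomal RNA. LIN28B differed by 0.53 (SE 0.190, adjusted p = 0.0854) and passed with DESeq2 at 0.59 (adjusted p = 0.0235). The HMGA2 call was lost without any one of control input 2 or 4, CNOT1 siRNA input 1 or 3, control subpolysomal 4 or CNOT1 siRNA subpolysomal 2, at adjusted p up to 0.0636.

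**Figure D5:**
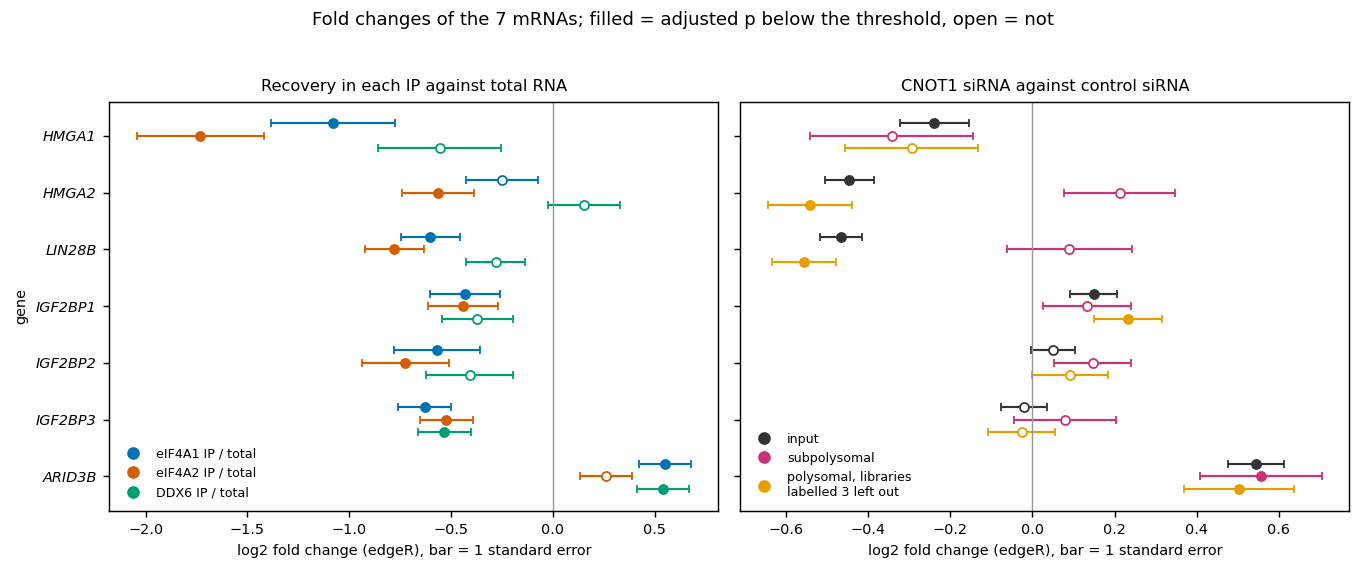
Log2 fold changes of the 7 mRNAs in each IP against total RNA (left) and after CNOT1 siRNA in input, subpolysomal and polysomal RNA (right, the polysomal libraries labelled 3 left out). Points are edgeR estimates, filled where called, and bars 1 SE. HMGA1 in the eIF4A2 IP, at −1.73, is the lowest value, and ARID3B lies above 0 in every comparison drawn.

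Other genes of the pathway were read from fixed lists as background to the 7 mRNAs. In the list of 35 let-7 targets known from other work, which holds none of the 7, 33 were tested in the IPs. With eIF4A2 11 were higher and 5 lower (median log2 fold change 0.22, against 0.01 over all genes), with eIF4A1 11 and 5 (0.26 against 0.04) and with DDX6 8 and 4 (0.13 against 0.01). The share of the list called, 48.5% with eIF4A2 and with eIF4A1 and 36.4% with DDX6, was below that of all genes (50.3%, 52.6% and 46.0%). PBX3, a homeodomain protein, was among the largest rises, at 76.5 against 26.0 CPM in the eIF4A2 IP (1.56), with IGDCC3 at 1.19 and NR6A1 at 1.13. RRM2, a subunit of ribonucleotide reductase, was −1.08, CDC25A, a cell cycle phosphatase, −0.74 and NRAS −0.61. Compared directly, 2 were higher and 7 lower in the eIF4A2 than in the DDX6 IP (27.3% of the list, against 21.1% of all genes), IGF1R being highest at 0.84 and GNG5 lowest at −0.78.

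After TNRC6A/B siRNA 28 of 32 tested let-7 targets had a log2 fold change above 0, with a median of 0.27 against −0.03 over all genes, and none was called. These genes were read from the same libraries, 2 a group, so the count is a description. After CNOT1 siRNA in input RNA, 18 of 33 were higher and 10 lower (median 0.15 against −0.00), a share of 84.8% against 61.0% of all genes. LRIG3 was 87.2 against 44.1 CPM (1.00), THBS1 rose by 1.23, and TRIM71, a ubiquitin ligase of early development, was 38.9 against 22.1 CPM (0.83). NRAS fell to 185 from 290 CPM (−0.63), CCND2 changed by −0.63 and GNG5 by −0.60, so the list held genes that moved like HMGA2 as well as genes that moved like ARID3B. In subpolysomal RNA 5 of 32 were higher and 2 lower (0.18 against −0.04), a share of 21.9% against 27.8% of all genes. In polysomal RNA none of 33 was called with the libraries as labelled, and 9 were higher and 7 lower with both libraries labelled 3 left out, a share of 48.5% against 40.6%. Between polysomal and subpolysomal RNA under control siRNA 14 of 32 were higher and 4 lower (0.34 against −0.06), a share of 56.2% against 65.1%. Without the library labelled control 3 these were 16 and 4 (median 0.37), a share of 62.5% against 67.8%.

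Of 13 tested genes of let-7 maturation and turnover, a list that includes LIN28B, 5 were lower and 1 higher with eIF4A1, 4 and 2 with eIF4A2, and 6 and 0 with DDX6. Each of these is 46.2% of the list, against 52.6%, 50.3% and 46.0% of all genes. XPO5, which exports precursor microRNAs, was −0.998 with eIF4A1, −0.81 with eIF4A2 and −0.94 with DDX6. After CNOT1 siRNA in input RNA 5 were higher and 4 lower, among them DICER1 at 386 against 312 CPM (0.32) and HNRNPA1 at −0.54. These are 69.2% of the list, against 61.0% of all genes. In subpolysomal RNA 1 was higher, AGO2 at 0.98, and 3 lower, with DGCR8 at −1.01, or 30.8% against 27.8%. None was called after TNRC6A/B siRNA.

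Of 11 IGF2BP partners and bound RNAs, 8 were lower with eIF4A1 and with eIF4A2 and 7 with DDX6, with medians of −0.98, −0.94 and −0.65, and 1 was higher with DDX6. In each IP 72.7% of the list was called, against 52.6%, 50.3% and 46.0% of all genes. YBX1, a partner in mRNA stabilisation, was 265 against 2360 CPM in the eIF4A2 IP (−3.15), HNRNPU was −2.11 and ACTB, the mRNA first known to bind IGF2BP1, −2.10. After CNOT1 siRNA in input RNA MYC, whose mRNA IGF2BP1 is known to protect, was 1758 against 1084 CPM (0.71) and YBX1 −0.82, with 2 of 10 higher and 1 lower, a share of 30.0% against 61.0% of all genes. In subpolysomal RNA 3 were higher and 1 lower (36.4% against 27.8%), and none of 9 was called after TNRC6A/B siRNA.

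Among other oncofetal genes, 7 were tested in the IPs, and with eIF4A2 2 were lower, GPC3 at −1.83 and PLAC1 at −1.12, as in the eIF4A1 IP at −1.66 and −0.63. These are 28.6% of the list, against 50.3% and 52.6% of all genes. In input RNA after CNOT1 siRNA, where 61.0% of all genes were called, 2 of 5 were higher, PLAC1 at 0.73 and SALL4 at 0.36. Another 2 were lower, PEG10 at −0.54 and GPC3 at −0.51. In subpolysomal RNA, where 27.8% of all genes were called, PLAC1 was higher (0.88), and none of 4 was called after TNRC6A/B siRNA.

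Genes were also grouped by the number of let-7 matches in their 3′UTR. The 12 tested genes with 4 or more, of which HMGA2, LIN28B and IGF2BP1 are 3, had a median log2 fold change of −0.41 in input RNA after CNOT1 siRNA, against 0.05 for genes with none. After TNRC6A/B siRNA the medians were 0.33 and −0.01, and in the eIF4A2 IP −0.23 and −0.08. For genes with 1 match the medians were 0.04, 0.02 and 0.01, and for genes with 2 or 3 matches 0.02, 0.02 and −0.04, in the same order. A group of 12 genes is small, and these values are a description.

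The genes most like each mRNA were found by Pearson's r of log2 CPM over the 12 group means, among 8826 genes. The points share libraries and normalisation, so r is a description. HMGA1 was most like STX8 (0.982) and UFC1 (0.982), HMGA2 like TIPRL (0.988) and RAC1 (0.987), and LIN28B like GMFB (0.937) and AP2B1 (0.918). IGF2BP1 was most like GFPT1 (0.982) and ANLN (0.979), IGF2BP2 like CWC27 (0.981) and RPN1 (0.977), and IGF2BP3 like TBC1D8B (0.949) and ZNF507 (0.939). ARID3B was most like LGALSL (0.965) and CYB561 (0.965). Among the 7 mRNAs the highest value was that of HMGA1 and IGF2BP2 (0.774), and ARID3B had a negative r with each of the other 6, from −0.256 to −0.485. The group means include the polysomal libraries labelled 3. Without them HMGA1 with IGF2BP2 was 0.753 and ARID3B with the others −0.222 to −0.563. STX8 then came after UFC1 (0.983) for HMGA1, TIPRL ranked 3 and RAC1 1 for HMGA2, AP2B1 ranked 3 for LIN28B, ANLN 4 for IGF2BP1 and RPN1 10 for IGF2BP2, and CYB561 (0.972) came before LGALSL for ARID3B.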

How the data were processed

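HEK293 RNA was sequenced from stranded libraries of poly(A)-selected mRNA, and so only mRNA that kept a poly(A) tail was counted. The deposited values are raw read counts per gene symbol, made by the authors with TopHat2 on hg19 and HTSeq. The strand setting and filters are not given in the sources used here. All 40 libraries were mapped to 12 groups by their titles. For 1 total RNA library the title gives replicate 3 and the description another number, and the title was used.

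Counts were TMM-scaled within each experiment and tested with edgeR 4.0.16 (R 4.3.3, quasi-likelihood, filterByExpr) with Benjamini-Hochberg adjustment over all genes tested. The immunoprecipitation libraries were fitted together, and each gradient comparison on its own libraries. Depth was 26883978 to 46018900 counts in the immunoprecipitation libraries, 15914206 to 40725601 in the gradient libraries and 15353317 to 28783532 in the TNRC6A/B libraries, and no libraries held identical values. Alternatives were RLE size factors, DESeq2 1.42.0, no filter, a replicate block, other libraries in the fit, both polysomal libraries labelled 3 left out, and each library left out in turn. Leaving out the polysomal libraries together with the block, and the comparison of subpolysomal with input RNA, were added after seeing the data.

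Replicate numbers were taken to pair libraries where deviations from the group means correlated above 0.1 in every pair of the same number. This held for the immunoprecipitations (0.114 to 0.563), input RNA (0.105 to 0.191), subpolysomal RNA (0.422 to 0.578) and polysomal RNA without the libraries labelled 3 (0.131 to 0.295), and not with them (lowest −0.472) or between fractions.

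The 7 members and the lists (let-7 targets known from other work, let-7 maturation and turnover, IGF2BP partners and bound RNAs, other oncofetal genes, HEK293 markers, markers of other cell types) were chosen with earlier results of these data known. Named were the members, the targeted or precipitated genes, LIN28A, TRIM71, DICER1, IGF2 and H19, up to 3 called genes per list, comparison and direction, and the 2 genes most like each member. let-7 sequences came from RefSeq (GRCh38.p14), and 3′UTRs from GENCODE 44 on GRCh37, with 33529 symbols matched directly and 1920 through older names. The statistics were tested on simulated counts. There the TNRC6A/B fit called almost none of the changes put in, and the eIF4A2 IP fit missed many of the smaller ones. A member not called in these comparisons may therefore still have changed.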

Additional observations from a re-analysis of the deposited data

Results flagged for a closer look

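LIN28B was flagged in the polysomal library labelled CNOT1 siRNA 3, at 264 CPM against 157 to 173 CPM in the other 3 libraries of that group. Its gap to the nearest library was 0.856 of the group's range, above Dixon's limit of 0.829 for 4 libraries. It was the 1 of 42 groups of 4 libraries among the 7 mRNAs to pass that limit. Chance passes about 1 in 20, so 1 of 42 is no more than chance would give. The same library held 631 CPM of CNOT1 mRNA. The part of this in the LIN28B value was not tested.

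The CNOT1 siRNA effect on HMGA2 differed between subpolysomal and input RNA by 0.63 on the log2 scale (edgeR, adjusted p = 0.0268). It was −0.45 in input RNA and 0.21 in subpolysomal RNA. This comparison was added after the HMGA2 values had been seen, so its adjusted p is a description and not a test. The call was also lost in the fit of all gradient libraries and in several fits that left out a library.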

How the results depend on the processing

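Of 907 recomputed values of single members, 786 kept both their direction and their side of the threshold, 70 lost a call, 33 gained one and 18 changed sign. The cause of each change below was not tested. With no filter on low counts, 2 members in place of 1 were lower in the DDX6 IP, 1 in place of 0 was lower in the eIF4A2 than in the eIF4A1 IP, 1 in place of 2 was higher in input RNA after CNOT1 siRNA, and 2 in place of 1 passed in the subpolysomal minus input comparison, as with DESeq2. With only the compared libraries, 2 were lower in the DDX6 IP. With all 24 gradient libraries in 1 fit, 1 was higher in input RNA and 0 passed in the subpolysomal minus input comparison, HMGA2 then being 0.64 (adjusted p = 0.121).

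With the replicate block, 1 member was higher in the eIF4A2 IP, 4 were lower in the DDX6 IP, 2 in the eIF4A2 against the eIF4A1 IP and 4 in the eIF4A2 against the DDX6 IP, 2 were higher and 1 lower in subpolysomal RNA after CNOT1 siRNA, and 2 passed in the subpolysomal minus input comparison. It changed no other member's call where the numbers pair the libraries. After TNRC6A/B siRNA the block raised the number of all genes called from 0 to 763, DESeq2 called 8 and no filter 23, and no member passed. With both polysomal libraries labelled 3 left out, 2 members were higher and 2 lower in polysomal RNA (3 lower with the block), and the polysome shift held 1 lower (2 with the block). Members lower in polysomal than in subpolysomal RNA went from 1 to 0 under control siRNA with RLE, DESeq2, no filter or the block, and from 2 to 1 under CNOT1 siRNA with no filter, the block, all gradient libraries, or the library labelled 3 left out.

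Leaving out 1 library at a time gave 3 to 5 members lower in the eIF4A1 IP, 4 to 5 lower and 0 to 1 higher in the eIF4A2 IP, 0 to 3 lower in the eIF4A2 against the DDX6 IP, 1 to 2 higher and 2 to 3 lower in input RNA, 0 to 1 higher in subpolysomal RNA, 0 to 1 lower and 1 to 2 lower between fractions under control and CNOT1 siRNA, and 0 to 2 in the subpolysomal minus input comparison. After TNRC6A/B siRNA it turned the sign of HMGA1 (−1.12 to 0.99), HMGA2 (−0.32 to 0.082), IGF2BP2 (−0.31 to 0.20) and ARID3B (−0.42 to 0.70), and in input RNA that of IGF2BP3 (−0.076 to 0.0065). In polysomal RNA IGF2BP3, at 0.0077, turned to −0.0010 with RLE, −0.0011 with DESeq2 or no filter, −0.027 with the libraries labelled 3 left out (also with the block), and −0.13 to 0.086 with 1 library left out.

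Counts over all genes moved by more than 1.5 times for the eIF4A2 against the eIF4A1 IP (185, with 700 by DESeq2, 997 with no filter, 2766 with the block and 24 with only the compared libraries), for the DDX6 against the eIF4A1 IP (16, with 541, 232, 1730 and 0 in the same order), for the eIF4A2 against the DDX6 IP (3685, with 7074 with the block), for input RNA (9561, with 4859 in the fit of all gradient libraries) and for subpolysomal RNA (4394, with 9215 with the block). They also moved for polysomal RNA (0, with 5898 when the libraries labelled 3 were left out and 8455 with the block too), the polysome shift (157, with 578 by DESeq2, 446 with no filter, 949 in the fit of all gradient libraries, 1586 with the libraries labelled 3 left out and 2874 with the block too) and the subpolysomal minus input comparison (1653, with 2742 with the block and 522 in the fit of all gradient libraries). RLE size factors changed the split of genes called higher and lower from 95 and 62 to 46 and 62 for the polysome shift, and from 775 and 878 to 1055 and 649 for the subpolysomal minus input comparison. Leaving out 1 library moved some counts as far. The eIF4A2 against the eIF4A1 IP fell to 58 without eIF4A1 IP 2, 46 without eIF4A1 IP 3, 107 without eIF4A2 IP 1 and 67 without eIF4A2 IP 3. The eIF4A2 against the DDX6 IP fell to 1647 without eIF4A2 IP 1, 2401 without eIF4A2 IP 3 and 1487 without DDX6 IP 2, and the DDX6 against the eIF4A1 IP to 0, 2, 3 and 5 without eIF4A1 IP 1, eIF4A1 IP 3, DDX6 IP 1 and DDX6 IP 3. The polysome shift rose to 658 without the polysomal library labelled control 3 and fell to between 29 and 102 without any one library other than control subpolysomal 2 and 3 and the polysomal library labelled CNOT1 siRNA 3, and the subpolysomal minus input comparison fell to 1099 without control input 3.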
